A study of Mus musculus with 3 samples.

Results

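Immediate early genes were examined in sorted cells of the mouse olfactory epithelium: Fos, Fosb, Jun, Junb, Jund, Egr1, Egr3, Nr4a1, Dusp1 and Ier2. These 10 genes were taken by name, as markers of neuronal activity and of cell dissociation, out of 18193 genes on the array. They are read by 13 of its 45101 probe sets. Jun, Jund and Egr3 have 2 probe sets each and the other members have 1. The cells came from Tgn1-2G transgenic mice of both sexes, aged 5 to 8 days after birth, and all fractions carried the transgene, which is known from other work to express GFP under control elements of Neurog1. Cell sorting gave a strongly fluorescent fraction of 1000000 cells (GFP+++), described by the submitters as rich in immature neurons, a weakly fluorescent one of 1300000 cells (GFP+), described as holding slightly more mature neurons, and one of 6800000 cells without fluorescence (GFP-), described as holding every cell type with immature neurons depleted. The labels give the number 32 for every fraction without saying what it counts, and each fraction was measured on 1 array.

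Immediate early genes are switched on within minutes of a stimulus, with no need for new protein. Calcium entry, growth factors and stress reach them through MAP kinases, which act on serum response factor with its Elk partners and on CREB at promoters that stand ready. In neurons their mRNA is a common sign of recent firing, and enzymatic dissociation of a tissue is known to induce many of the same genes. Fos and Jun proteins pair through leucine zippers to form the transcription factor AP-1, Egr proteins and Nr4a1 bind DNA through zinc fingers, and Dusp1 dephosphorylates MAP kinases.

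Promoters of 6 members are shown to set those of members 2-fold or more below GFP- in GFP+++ beside those of members within 2-fold. Exact matches to a few short motifs are marked. They span 250 bases before to 50 after the RefSeq start site (GRCm38.p6), 5′ to 3′ along the gene. Capitals mark matches on either strand to TGACG, the core of the cAMP response element, and to the full element TGACGTCA. They also mark the Egr motif GCGNGGGCG and TATAAA, the letters of a TATA box. An AP-1 motif, TGANTCA, and the CArG box, the site of serum response factor, were searched too and had no match in these windows. Sites that differ by a letter or lie outside the windows were not searched, so no match does not mean that a gene lacks such a site. The lower group is Fos (chr12:85473640-85473939, plus strand), Nr4a1 (chr15:101266596-101266895, plus strand) and Junb (chr8:84978699-84978998, minus strand).
Fos: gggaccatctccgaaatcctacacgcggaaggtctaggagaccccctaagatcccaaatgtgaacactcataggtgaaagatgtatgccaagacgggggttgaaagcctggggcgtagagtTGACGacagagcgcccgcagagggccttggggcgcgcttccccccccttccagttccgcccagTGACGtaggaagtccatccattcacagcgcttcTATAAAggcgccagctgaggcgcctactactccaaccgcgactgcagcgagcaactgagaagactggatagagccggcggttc
Nr4a1: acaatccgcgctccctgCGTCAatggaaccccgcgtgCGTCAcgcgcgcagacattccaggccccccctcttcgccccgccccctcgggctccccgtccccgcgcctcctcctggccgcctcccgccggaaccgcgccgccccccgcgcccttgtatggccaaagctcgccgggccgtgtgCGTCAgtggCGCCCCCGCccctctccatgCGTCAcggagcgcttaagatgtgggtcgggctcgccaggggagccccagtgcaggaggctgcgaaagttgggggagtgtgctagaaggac
Junb: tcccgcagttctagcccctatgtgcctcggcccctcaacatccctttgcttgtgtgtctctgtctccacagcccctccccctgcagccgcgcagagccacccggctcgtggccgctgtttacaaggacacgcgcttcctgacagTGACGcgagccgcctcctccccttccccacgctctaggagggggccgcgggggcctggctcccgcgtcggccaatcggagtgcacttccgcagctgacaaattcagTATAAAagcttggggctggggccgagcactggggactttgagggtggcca
The other group is Jund (chr8:70697489-70697788, plus strand), Dusp1 (chr17:26508423-26508722, minus strand) and Jun (chr4:95052173-95052472, minus strand).
Jund: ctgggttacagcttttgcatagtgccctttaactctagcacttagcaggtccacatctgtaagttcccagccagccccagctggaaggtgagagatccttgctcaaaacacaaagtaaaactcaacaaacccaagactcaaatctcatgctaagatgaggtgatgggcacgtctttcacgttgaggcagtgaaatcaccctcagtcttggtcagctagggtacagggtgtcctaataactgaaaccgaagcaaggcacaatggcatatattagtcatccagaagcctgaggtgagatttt
Dusp1: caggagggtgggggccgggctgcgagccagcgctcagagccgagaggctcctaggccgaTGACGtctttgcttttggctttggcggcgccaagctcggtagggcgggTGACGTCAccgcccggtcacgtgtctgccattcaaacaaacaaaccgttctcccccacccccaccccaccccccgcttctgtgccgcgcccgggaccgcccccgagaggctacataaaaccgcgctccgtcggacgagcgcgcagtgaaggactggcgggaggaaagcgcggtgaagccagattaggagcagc
Jun: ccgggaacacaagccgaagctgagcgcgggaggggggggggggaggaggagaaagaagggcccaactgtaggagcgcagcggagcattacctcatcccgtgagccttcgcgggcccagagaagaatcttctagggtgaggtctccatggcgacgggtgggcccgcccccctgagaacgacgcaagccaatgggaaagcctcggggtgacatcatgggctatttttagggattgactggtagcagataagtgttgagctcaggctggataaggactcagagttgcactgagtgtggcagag
Of the 10 members, 7 were in the RefSeq promoter table, and Fosb, not shown, is the seventh. TGACG was matched 2 times for Fos, 4 times for Nr4a1, 1 time for Junb and 3 times for Dusp1, where 2 of the matches lie within 1 copy of TGACGTCA. TATAAA began at position -33 from the start site for Fos but at position 1, the start site itself, for Junb. Jun and Jund had no match to any motif searched. Over 32544 promoters of the same length, 20.9% held TGACG, 1.80% TGACGTCA, 7.79% TGANTCA, 1.64% a CArG box, 5.60% GCGNGGGCG and 13.6% TATAAA. A match describes letters only, and it did not divide the groups, since Dusp1 of the second group holds the full element.

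The values are MAS5 signals on a linear scale, in arbitrary units, and 3 signals in a row are those of GFP+++, GFP+ and GFP- in that order. A floor of 104, the median of all signals, stood for signals below it. With 1 array per fraction there was no spread between replicates and no test, so every difference describes these arrays. The error given with a log2 fold is the pooled SD among probe sets of the same gene, 0.30 for GFP+++ against GFP-. It is a spread between probe sets on the same arrays. It holds no spread between animals, sorts or arrays, nor any error that all probe sets of an array share. In sorted bulk cells, fewer cells of a type and less RNA per cell cannot be told apart. The arrays had 59.0% (GFP+++), 64.2% (GFP+) and 66.1% (GFP-) of genes above the floor. Markers of olfactory sensory neurons (OSN) were bright on every array, with the mature marker Omp at 5041, 10615 and 7748 and Gap43, of growing axons, at 11233, 6006 and 6395.

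In GFP+++ against GFP-, the question is whether the fraction rich in immature neurons differs in its immediate early genes from the fraction without fluorescence. Of the 9 members above the floor on at least 1 array, Fos, Egr1, Ier2, Junb and Nr4a1 were 2-fold or more below GFP- in GFP+++, and 0 members were 2-fold or more above it. Among all 12235 genes tested, 12.4% were as far below and 1.92% as far above. The median log2 fold of the 9 was -1.13, beside 0.01 over all genes tested. Jun, Jund and Dusp1 lay slightly above 0, so the members did not move as a block.

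The AP-1 subunits themselves parted. Fos had signals of 3463, 5840 and 7589. It was thus lowest in GFP+++, 2.19-fold below GFP- (log2 -1.13 ± 0.30, SD of probe sets over 4633 genes). Junb, a Jun relative that is itself strongly inducible, gave 158, 440 and 511. Its GFP+++ signal was 3.24-fold below GFP- (log2 -1.70), close above the floor, while the GFP+ and GFP- signals lay near each other.

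Fosb, the second Fos protein on the list, was dim, with signals of 46.8, 114 and 143. As GFP+++ lay under the floor, it was at least 1.37-fold lower there than in GFP-, which leaves a larger difference unmeasured. Jun, the main partner of Fos, gave 5310, 3886 and 4472 on its brighter probe set and 4489, 2470 and 2604 on the other. Both probe sets were highest in GFP+++ and lowest in GFP+, and their log2 folds of GFP+++ against GFP- were 0.25 and 0.79. They differed by 0.54, against an SD of 0.43 for such a difference. Jund, the Jun relative known for steady expression, gave 6968, 6802 and 5965 on the probe set used (log2 0.22), so the arrays differed by less than the SD. Its second probe set lay under the floor on all 3 arrays, between 18.9 and 28.7, and gave no fold.

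The zinc finger factors that could be measured were both lower in GFP+++. Egr1, an early growth response factor used as a marker of OSN activity, had signals of 1841, 3379 and 4517, a 2.45-fold difference between the outer fractions (log2 -1.30). Nr4a1, an orphan nuclear receptor, gave 199, 879 and 917. It had the lowest log2 fold of the 9 members, -2.20 or 4.60-fold lower in GFP+++, and 2.71% of all genes tested lay below it. Egr3 gave 33.7, 29.3 and 65.2 on 1 probe set and 9.77, 41.0 and 67.3 on the other. All of these lie under the floor, so its direction was not read.

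The remaining members also went separate ways. Ier2, a small nuclear protein of the early response, had signals of 871, 2140 and 2308, 2.65-fold lower in GFP+++ (log2 -1.41). Dusp1, the phosphatase that ends MAP kinase signalling, gave 6417, 5077 and 5238. It was highest in GFP+++, but its log2 fold of 0.29 was within 1 SD of probe sets.

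**Figure D1:**
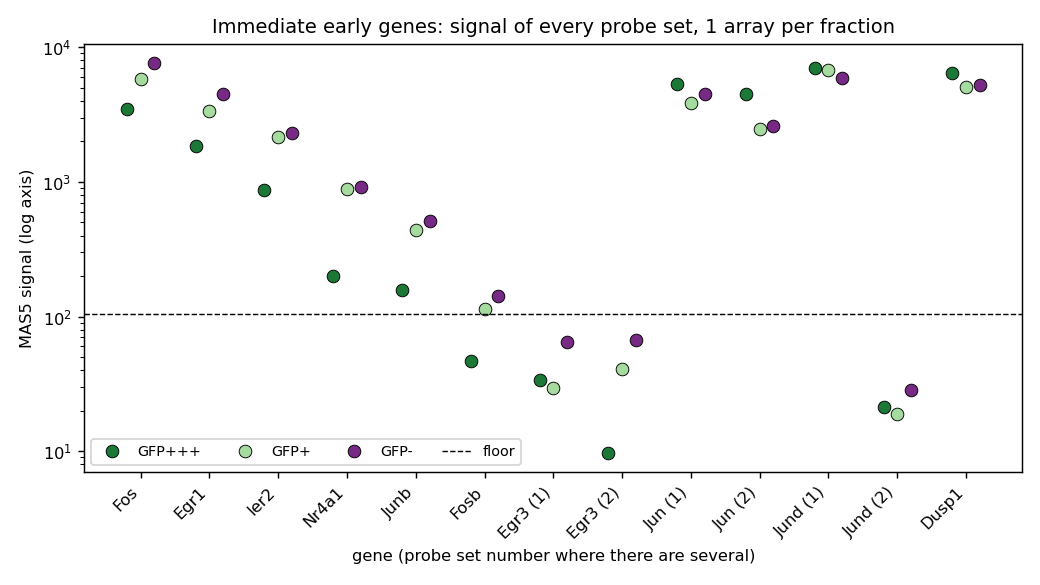
MAS5 signal (log axis) of each of the 13 probe sets of the 10 immediate early genes, with 1 point per array (GFP+++ dark green, GFP+ light green, GFP- purple) and the floor of 104 as a dashed line. Fos, Egr1, Ier2, Nr4a1, Junb and Fosb have their lowest point in GFP+++, while both Jun probe sets and Dusp1 have their highest there, and both Egr3 probe sets and 1 of Jund lie under the floor.

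Fosb, known only by its bound of -0.46, cannot be placed with either the 5 lower members or the 3 above 0. Within the Jun family, the log2 fold of Jun exceeded that of Junb by 1.94 and that of Jund exceeded it by 1.92. Jun exceeded Fos, its dimer partner, by 1.38. The SD of a difference between folds, taken from probe sets, is 0.43. A factor common to a whole array cancels in these differences.

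How many members passed 2-fold did depend on that factor. With each array scaled to a common median, the median of all genes moved to 0.42, and Nr4a1 (-1.79) and Junb (-1.28) were the members still 2-fold or more below GFP-. Ier2 (-0.99), Egr1 (-0.88) and Fos (-0.72) then lay within 2-fold, and of all genes 9.27% were 2-fold or more above GFP- and 8.58% as far below. Relative to the median of all genes, such a factor nearly cancels by arithmetic, so that measure cannot check the scaling. On it the log2 folds of the 8 members above the floor on both arrays hardly moved. Fos was at -1.14 with the trimmed and -1.13 with the median scaling. Jun was at 0.24 and 0.25, Jund at 0.22 under both and Dusp1 at 0.28 and 0.29. With quantile normalization the same 5 members passed 2-fold, and Jun (0.17), Jund (0.18) and Dusp1 (0.23) stayed above 0. Relative to the median of all genes, Jun, Jund and Dusp1 then came to 0.11, 0.12 and 0.18. With the median over probe sets, which lets in the Jund probe set under the floor, Jund turned to -0.11 in GFP+++ against GFP- and to -0.21 in GFP+ against GFP-.

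Between GFP+ and GFP- the members were much closer. Of 9 tested, 0 differed by 2-fold or more, where 0.607% of 12196 genes were that far above GFP- and 0.804% that far below, or 1.09% and 0.384% with median scaling. Log2 folds ran from -0.42 (Egr1) to 0.19 (Jund), with a median of -0.20, and the SD among probe sets was 0.24. Egr1, Fos (-0.38) and Fosb (-0.33) were the members beyond 1 SD, all lower in GFP+, and they were below 0 under the median and quantile scalings too. Under these, Fos came to -0.24 and -0.23 and Fosb to -0.19 and -0.21, no longer beyond that SD, while Egr1 stayed beyond it at -0.28 and -0.40. Junb was at -0.22, Jun at -0.20, Ier2 at -0.11, Nr4a1 at -0.06 and Dusp1 at -0.05. Of these, Ier2, Nr4a1 and Dusp1 turned to 0.03, 0.08 and 0.09 with median scaling, and Dusp1 to 0.04 with quantile normalization.

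GFP+++ against GFP+ shares an array with each of the comparisons above. Nr4a1 (log2 -2.14), Junb (-1.48) and Ier2 (-1.30) were 2-fold or more below GFP+, and 0 members were that far above it. Of 11881 genes, 9.34% were that far below and 0.985% that far above, or 6.40% and 3.47% with median scaling. Egr1 (-0.88) and Fos (-0.75) were lower by less than 2-fold, and Fosb was at least 1.09-fold lower. Jun had log2 folds of 0.45 and 0.86 on its probe sets, beyond the SD of 0.30, Dusp1 stood at 0.34 and Jund at 0.03. Jund turned to -0.15 with quantile normalization.

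**Figure D2:**
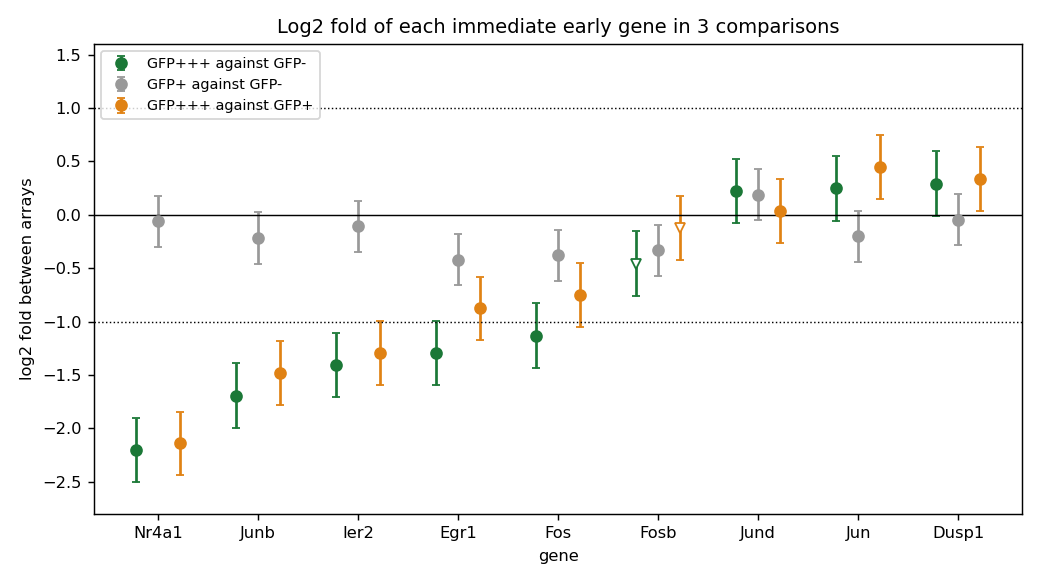
Log2 fold between arrays for the 9 immediate early genes above the floor, in GFP+++ against GFP- (green), GFP+ against GFP- (grey) and GFP+++ against GFP+ (orange). Bars are the pooled SD of probe sets of a gene, open triangles mark folds that are bounds because GFP+++ lay under the floor, and dotted lines mark 2-fold. The green and orange points of Nr4a1, Junb and Ier2 lie below the lower dotted line, those of Jund, Jun and Dusp1 above 0, and all grey points lie between -0.42 and 0.19.

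The weakly fluorescent cells stood at different places between the outer fractions. For Nr4a1, GFP+ had covered 97.3% of the log2 distance from GFP+++ to GFP-, for Ier2 92.2% and for Junb 87.2%. For Fos this was 66.6% and for Egr1 67.7%, where the step left between GFP+ and GFP- was within 1 SD of probe sets for Fos with median or quantile scaling. The signals of 6 of 9 members were in the order GFP+++, GFP+, GFP- from low to high, an order seen in 25.4% of 12331 genes and lost by Nr4a1 and Ier2 with median scaling. Among genes whose GFP+++ signal was 2-fold or more below GFP-, however, 92.3% had GFP+ in between, so that order adds little for the 5 lower members. Jun and Dusp1 were lowest in GFP+, as were 21.5% of genes, though Dusp1 was not with the median and quantile scalings.

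Relatives of the members from the same families were mostly dim. Fosl2 gave 29.8, 151 and 215, and Nr4a2 gave 32.3, 135 and 334, so GFP+++ was at least 2.06-fold and at least 3.20-fold lower than GFP-. Nr4a3 gave 23.2, 133 and 194, at least 1.86-fold lower. Fosl1, Egr2 and Egr4 lay under the floor on every array. These relatives were named after their values were seen. Together with the other inducible transcription factors they make a list of 20, of which 16 passed the floor, 6 were 2-fold or more below GFP- in GFP+++, or 37.5% beside the 12.4% of all genes, and 0 that far above. With median scaling 4 were that far below and 1, Klf6, above, and the median log2 fold went from -0.75 to -0.46. Klf4, a factor of epithelial cells, was at -1.68 and Myc, the growth regulator, at -1.32. Klf2, known from endothelial cells, was at -0.76. The bright members Cebpb (0.20), Klf6 (0.71) and Klf10 (-0.30) stayed within 2-fold.

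Among other early response genes, 11 of 23 measured were 2-fold or more below GFP- in GFP+++ and 0 that far above, a share of 47.8% beside the 12.4% of all genes. With median scaling it was 8 of 23, and the list median went from -0.66 to -0.46. Ccn2, a matricellular protein, was 8.82-fold lower, with signals of 137, 728 and 1212. Ier3 (212, 1055 and 1086), Rgs2, an inhibitor of G protein signalling (192, 699 and 976), and Zfp36, which destabilises cytokine mRNAs (199, 675 and 828), had log2 folds of -2.36, -2.34 and -2.06. As with Nr4a1, most of the distance in Ier3 lay between GFP+++ and GFP+. The bright members Nfkbia (-0.66), Odc1 (-0.35), Mcl1 (0.04) and Rhob (0.00) were within 2-fold.

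Genes through which neuronal activity changes synapses were in part too dim to read. Of 15 neuronal activity effectors, 8 passed the floor, or 53.3% beside 67.8% of all genes, and Arc, the synaptic plasticity gene, with Bdnf, Vgf, Pcsk1, Inhba, Rgs4 and Nptx1 did not pass on any array. Npas4, the activity-dependent factor of the transcription factor list, did not pass either, at 19.5, 17.7 and 31.9. Of the 8, Nrn1, a neurite growth factor, was past 2-fold (122 in GFP+++ against 361 in GFP-, log2 -1.56), and 1 of 8 is 12.5%, the share of all genes being 12.4%. Scg2 was at -0.88, Nptx2 at -0.36, Lingo1 at -0.17, Syt4 at 0.01 and Dclk1 at 0.28. Their median of -0.16 turned to 0.24 under the median scaling, where 9 genes were tested. Relative to all genes, where a factor common to an array nearly cancels, it stood at -0.17 and then -0.18.

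Genes listed as following activity or cAMP signalling in OSN did not share a direction. The list was not split into genes that such signals raise and lower, so neither the mix nor the median measures activity. S100a5, a calcium binding protein that falls when odour input is lost, gave 11132, 14929 and 18708 (log2 -0.75 for GFP+++ against GFP-). Like Fos it was lowest in GFP+++ and highest in GFP-. Pcp4l1 gave 3277, 6845 and 4460 and was highest in GFP+, as Omp was. Cidea was at -2.08, Plxna1 at 0.76, Bex1 at 0.49 and Nrp1 at 0.07, and over the 7 measured genes the median was 0.07. It moved to 0.49 with median scaling, where Plxna1 passed 2-fold at 1.17, and to -0.01 with quantile normalization. Relative to the median of all genes, it stood at 0.06, then 0.07 and -0.07.

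Feedback inhibitors and upstream kinases were closer to the background. Of 12 MAP kinase phosphatases and related inhibitors tested, 2, or 16.7%, were 2-fold or more below GFP- in GFP+++, Dusp6 (579 against 2483, log2 -2.10), which acts on ERK, and Spred1 (-1.47). Dusp14 (0.25), Dusp4 (-0.32), Spry2 (-0.54) and Spry1 (-0.89) were within 2-fold, and the median of -0.36 turned to 0.04 with median scaling. Relative to the median of all genes, it stood at -0.37 and then -0.38. Of 24 upstream kinases and factors 2 were that far below, or 8.33%, below the 12.4% of all genes. These were Elk3 (-1.84), a partner of serum response factor, and Rps6ka3 (-1.51), a kinase of CREB. The stress kinases Mapk8 (0.64) and Mapk10 (0.29) and the factors Atf4 (0.63) and Atf2 (0.24) were within 2-fold. With median scaling Mapk8 (1.05) and Atf4 (1.04) passed 2-fold above GFP-, and the list median of -0.12 turned to 0.27. Relative to the median of all genes, the list median stood at -0.12 and then -0.15.

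Heat shock genes, which dissociation also induces, differed in size of change. The constitutive chaperones Hspa8 (-0.20), Hspa5 (-0.20), Hsp90aa1 (-0.06) and Dnaja1 (0.16) differed by less than the SD of probe sets. Of 13 measured genes, 3 were 2-fold or more below GFP- in GFP+++, or 23.1% beside the 12.4% of all genes. These were the small chaperone Hspb1 (821, 2515 and 3269, log2 -1.99), the cochaperone Bag3 (-1.80) and the inducible Hspa1b (307, 809 and 691, log2 -1.17). The other inducible Hsp70 gene on the list, Hspa1a, gave 189, 381 and 250 and was highest in GFP+. Hspa1a and Hspa1b are near-identical copies, so their probe sets may read both. With median scaling Hspa1b came within 2-fold (-0.75), which left 2 of 13, and the list median of -0.20 turned to 0.22. Relative to the median of all genes, the list median stood at -0.20 under both scalings.

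**Figure D3:**
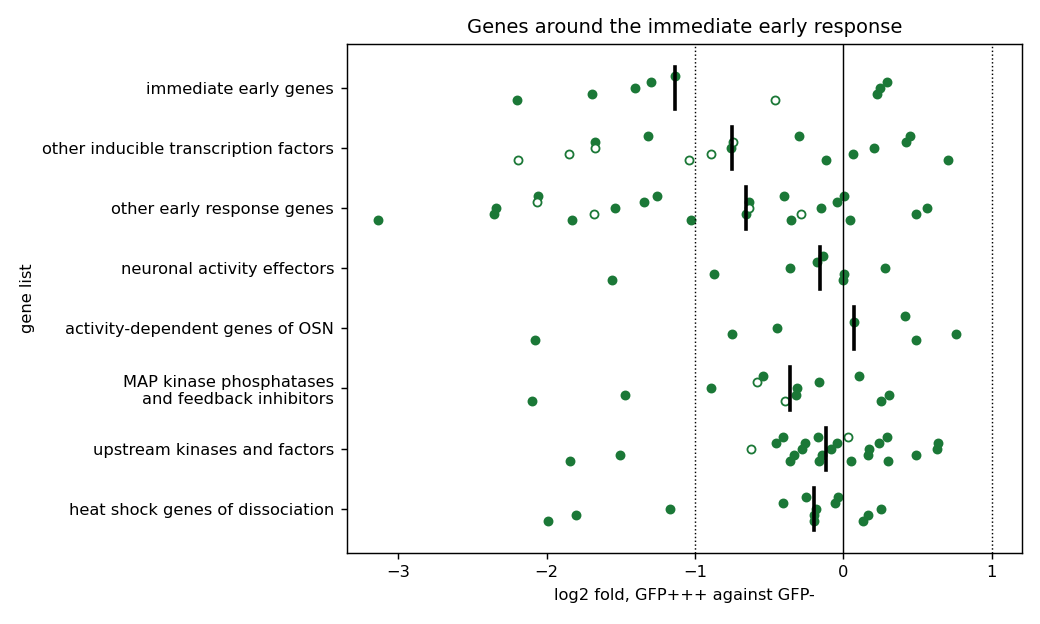
Log2 fold of GFP+++ against GFP- for each gene above the floor in 8 lists around the immediate early response, with 1 point per gene, open points for bounds, a black bar at each list median and dotted lines at 2-fold. Immediate early genes lie farthest to the left by median (-1.13), ahead of other inducible transcription factors (-0.75) and other early response genes (-0.66), whose order swaps with median or quantile scaling. In the scaling drawn, 0 genes lie beyond the right dotted line, while with median scaling Klf6, Plxna1, Mapk8 and Atf4 do.

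Several lists of markers of cells other than neurons had medians farther below 0 than the immediate early genes on the same arrays. Their sums below count signals under the floor at the floor. All 14 macrophage and neutrophil markers were 2-fold or more below GFP- in GFP+++, 9 of them under the floor there, and their signals summed to 1627, 22932 and 28611. Csf1r gave 151, 3685 and 5051, and S100a8 gave 137, 4020 and 4134. All 10 fibroblast and matrix markers were as far below, with sums of 2887, 29308 and 48091, led by Col1a2 (log2 -4.08) and Sparc (-4.91). So were all 10 Bowman gland markers, with sums of 3168, 15224 and 30845, led by Bpifb3 (-4.72) and by Bpifb9b, under the floor in GFP+++ (signals of 86.2, 3491 and 12602). With median scaling 9 of these 10 passed. In GFP+ against GFP-, 0.804% of all genes were 2-fold or more below and 0.607% that far above. There, 0 of the 14 macrophage and neutrophil markers were past 2-fold. Their log2 folds ran from -0.95 to 0.27 with a median of -0.52. With quantile normalization 2 of them were 2-fold or more below, beside 0.817% of all genes. Of the 10 fibroblast and matrix markers 0 were that far below, or 1 with quantile normalization. Of the 10 Bowman gland markers 3 were, or 2 with median scaling, beside 0.384% of all genes.

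Other lists differed less, where 12.4% of all genes tested were 2-fold or more below GFP- in GFP+++. Basal cell and proliferation markers passed 2-fold in the same direction for 8 of 9 measured members (sums of 2797, 6871 and 9746), among them Mki67 (log2 -1.70) and Top2a (-1.79). Glia markers did so for 5 of 7 (3832, 8479 and 12155), among them Fabp7 (-2.14) and Apod (-3.36). The glia list also held 1 marker above 0, at 0.82, which passed 2-fold above GFP- with median scaling. Endothelial and pericyte markers did so for 3 of 8 (4295, 10689 and 16233), among them Cldn5 (-2.55) and Rgs5 (-2.00). Rgs5 alone gave 3523, 9177 and 14137 of these sums. The median of the 8 was -0.76, and 5 of their folds were bounds. Flt1 and Vwf lay under the floor on every array. Sustentacular markers passed 2-fold below GFP- for 6 of 10 (46634, 59044 and 79762), or 3 of 10 with median scaling. Their bright enzymes Cyp2g1 and Cbr2 stayed within 2-fold. Immature OSN markers summed to 108517, 74742 and 86957, with Stmn1 at -0.06 and Stmn2 at 0.24. Of these 12 markers 11 lay above 0, with a median of 0.41. Of the 12, 1 was 2-fold or more above GFP- in GFP+++, beside 1.92% of all genes. With median scaling 5 were that far above, beside 9.27%, and with quantile normalization 0, beside 3.01%. Mature OSN markers summed to 51893, 77391 and 67030, highest in GFP+, with Gng13 at -0.08 and Stoml3 at -0.46. Their median was -0.40, or 0.01 with median scaling. Of these 10 markers, 1 was 2-fold or more above GFP- in GFP+++ and 0 that far below. The part of these cells in the signals of the immediate early genes was not tested.

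**Figure D4:**
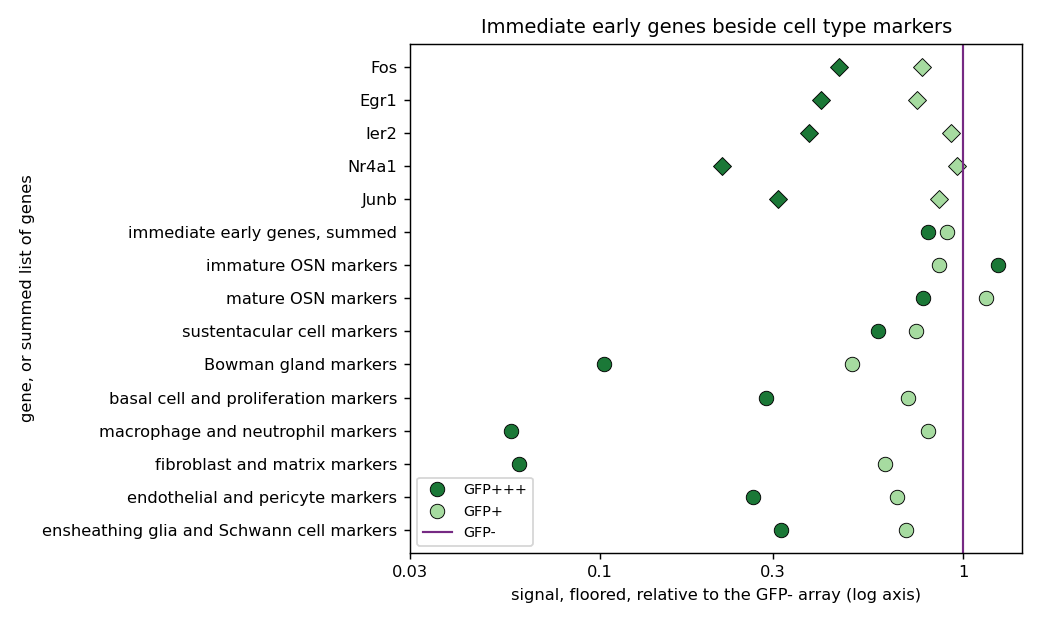
Signal of GFP+++ (dark green) and GFP+ (light green) relative to the GFP- array (purple line at 1, log axis). Diamonds are the 5 immediate early genes 2-fold or more below GFP- in GFP+++, drawn for that reason. Circles are summed lists of genes, with signals under the floor raised to it. Jun, Jund and Dusp1, slightly above GFP- in GFP+++, enter only the sum of the members, which was 1.25-fold below GFP- in GFP+++. In GFP+++ the 5 genes lie between 0.217 (Nr4a1) and 0.456 (Fos) of their GFP- signal, while the macrophage and neutrophil sum is at least 17.6-fold and the fibroblast sum at least 16.7-fold below GFP-.

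The genes whose pattern over the 3 arrays was nearest to that of Fos, by the distance between centred log2 signals, were Dhrs4 (656, 1093 and 1427), Atad2 (455, 763 and 1015) and Gpx1 (1702, 2849 and 3811). Nearest to Jun were Mab21l1 (961, 707 and 815), Slc50a1 (819, 594 and 687) and Aatf (789, 583 and 668). With 3 arrays a pattern has only 2 free values. Of 6837 genes compared, 30 lay within a distance of 0.1 of Fos and 248 of Jun, so the likeness is weak.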

How the data were processed

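RNA of 3 sorted fractions was hybridised to 1 Affymetrix array each, as biotin-labelled cRNA per the labels' protocols. The authors made the deposited intensity values with MAS5, per the submitters' processing notes, on a linear scale. Its version is not given in the sources used here, and no detection calls were used. The 2% trimmed mean of the deposited intensity was 500.0 on every array.

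Arrays were rescaled to a common 2% trimmed mean. Of 45101 probe sets, 34945 carried 1 gene symbol in the platform annotation after 64 control probe sets were set aside, 932 carried several and 9211 none. Of those with 1 symbol, 34741 were matched by Entrez identifier to the RefSeq table of GRCm38.p6. The brightest probe set by mean signal stood for its gene, and every probe set of a member is given. Signals under the pooled median of 104 were raised to it. A gene under it on both arrays was not tested, and with 1 of them under it the fold is a lower bound. Genes were called at 2-fold, with no test and no p-value, since the groups had 1 array each. This number of arrays sets the limit of precision. The members and gene lists were chosen with earlier results of these data known. Of the lists, the 4 brightest genes and the 4 with the largest measured log2 folds were named, and the 2 brightest of a cell type list. Omp, Gap43 and genes under the floor were named outside this rule, with their values known. The steps were tested on simulated arrays with Python 3.11.15 and numpy 2.4.6.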

Additional observations from a re-analysis of the deposited data

How the results depend on the processing

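No paired analysis was possible because each fraction had 1 array, and for the same reason no replicate could be left out. Scaling, floor, choice of probe set and fold threshold were varied. With each array scaled to a common median, the members 2-fold or more below GFP- in GFP+++ numbered 2, against 5, and their median log2 fold was -0.72, against -1.13, a difference that the scaling factor itself produces. At a threshold of 1.5-fold, 5 members were lower in GFP+++ than in GFP+, against 3, and the share of all genes tested was 18.2%, against 9.34%. With the floor at the 25th percentile, and likewise with no floor, 1 member was 2-fold or more below GFP- in GFP+, against 0: Egr3, whose signals then counted. The share of all genes that far below was 2.40% and 8.02%, against 0.804%. The other 73 recomputed counts and medians stayed within 1.5 times or within 1 SD of probe sets, and neither the median of the members nor any called member changed direction. Of 213 recomputed folds of single members, 195 moved by less than that SD. With the floor at the 65th percentile Junb came to -0.89 in GFP+++ against GFP-, since its GFP+++ signal then lay under the floor. Over the floors tried, 7.61% to 22.4% of all genes were 2-fold or more below GFP- in GFP+++. Signals near the floor limit what can be read for Fosb, Egr3 and the relatives of the members. With the floor at the 25th percentile, or none, Fosb went from -0.46 to -1.62 in GFP+++ against GFP- and from -0.13 to -1.28 against GFP+, which made 6 and 4 lower members. In GFP+++ against GFP+, 14.5% of all genes were then 2-fold or more lower with that floor and 18.1% with none. With the median over probe sets Jund turned from 0.22 to -0.11 in GFP+++ against GFP- and from 0.19 to -0.21 in GFP+ against GFP-.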
